A study of Mus musculus with 10 samples.

Results

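The caudal end of the neocortex was compared with its rostral end in outbred MF1 mouse embryos at E11.5, using every array of the series that its title assigns to MF1. These were 6 of the 10 arrays and 3 of the 5 pools. Each pool held tissue of 3 embryos, taken from the rostral and the caudal end of the neocortex, each 1 part in 3 of it per the labels. Trizol was used to extract the RNA, and per the series' design text the cDNA was amplified before labelling and each set of pools came from a single litter. On each array the caudal RNA of a pool competed with its rostral RNA, one carrying Cy3 and the other Cy5, and a dye-swap array repeated the pool with the labels exchanged. The other 4 arrays hold 2 pools of inbred C57Bl\6 embryos of the same age and dissection, and are used here only for comparison. The labels name no mutation or treatment for either strain. The 2 arrays of a pool share their RNA and were averaged, so n is 3 pools.

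Along the rostral to caudal axis, the early cortical primordium is patterned by signals from its edges. FGF ligands come from the rostral patterning centre and induce their own feedback inhibitors (Sprouty proteins, ERK phosphatases) and ETS transcription factors in the cells they reach. WNT and BMP ligands come from the cortical hem at the caudomedial edge, and transcription factors such as Nr2f1, Emx2 and Pax6 are known for graded expression across the sheet.

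Values are given on the log2 scale as caudal divided by rostral RNA, and a value above 0 means more RNA caudally. Arrays with the caudal RNA in Cy5 are called caudal-Cy5 arrays and their dye swaps rostral-Cy5 arrays. This direction is likely but is not stated with the deposited values, since it takes them as Cy5 over Cy3; with the opposite reading every sign turns. A ratio gives no level of a gene, so the tissue could not be checked by how strongly its markers were expressed. In such bulk tissue, fewer cells of a type and less RNA per cell cannot be told apart.

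Of 21766 probes, the MF1 arrays gave a ratio for 13723 to 18288, against 20191 to 20870 on the C57 arrays. Both dye orientations were measured in all 3 MF1 pools for 9370 probes and in 2 pools for 3505; these 12875 probes (59.2%) were tested, and they covered 9929 named genes. The Gapdh control spots, up to 230 on an MF1 array, had pool medians of -0.15, 0.10 and 0.02 in pools 1 to 3, with a median absolute deviation within an array of 0.16 to 0.23. The median over all probes was -0.20, 0.11 and 0.15 in the same pools, and arrays were not centred.

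The arrays agreed little across probes. Once both were turned to caudal over rostral, the 2 arrays of a pool correlated at -0.17 (13824 probes), -0.25 (12041 probes) and -0.23 (12934 probes). Between pools, the averaged ratios correlated at -0.04 for pools 1 and 2, -0.22 for pools 1 and 3, and 0.21 for pools 2 and 3. The part of the signal that follows the dye and not the region correlated at 0.31, 0.41 and 0.47 between the same pairs. Probes share a library, its array and its dyes and are not replicates. In 57.3% of the 9370 probes measured on all 6 arrays, the deviation of each dye orientation from their mean was larger than the caudal over rostral ratio itself.

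No probe passed. In limma with Benjamini-Hochberg adjustment over 12875 probes, 0% were called at an adjusted p under 0.05, and the smallest adjusted p was 0.996. Without adjustment, 377 probes (2.93%) had a limma p under 0.05, 139 of them higher caudally (1.08%) and 238 higher rostrally (1.85%). This split was not stable: it was 903 to 254 without pool 1, 476 to 383 with pools weighted by their agreement, and 202 to 160 with centred arrays fitted singly and the pool as a block. An exact two-sided test by sign changes of 3 pools has a smallest possible p of 0.25. Ratios above 0 made up 54.9% of the tested probes and ratios below 0 made up 45%, with a median of 0.03. The genes below are therefore described by their values, and none had a limma adjusted p below 0.996.

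The number of arrays that share a sign was used to describe the ratios. Of the 9370 probes, 96 (1.02%) were above 0 and 175 (1.87%) below 0 on all 6 arrays, 271 (2.89%) in all. Random signs on 6 arrays would give a share of similar size, so a shared sign alone does not show that a ratio repeats. After each array was centred on its median the split was 289 to 136. Shared signs below are for arrays that were not centred, and for ratios near 0 they depend on the offset of single arrays.

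**Figure D1:**
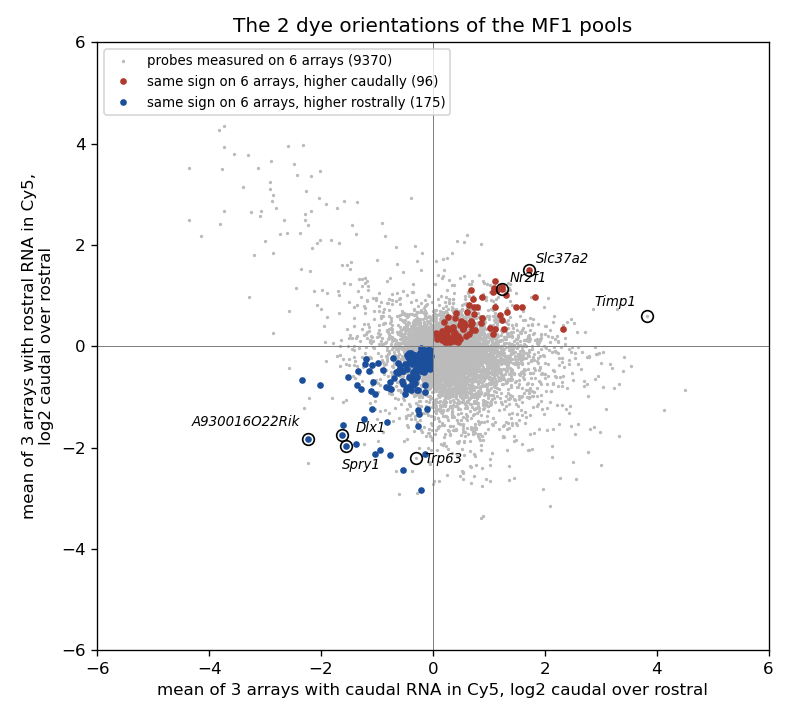
Each point is a probe measured on all 6 MF1 arrays. The x axis is its mean log2 ratio of caudal over rostral on the 3 caudal-Cy5 arrays and the y axis the same on the 3 rostral-Cy5 arrays. Red and blue points (96 and 175 probes) have the same sign on all 6 arrays; the grey points in the upper left and lower right have ratios that turned with the dye.

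The FGF feedback genes had the lowest median of the 43 gene lists, -0.50. Spry1, an inhibitor of receptor tyrosine kinase signalling that FGF induces, had ratios of -1.88, -1.58 and -1.83 in pools 1 to 3. Its 6 arrays ran from -2.49 to -1.27, all well below 0, and the mean was -1.76 ± 0.18 (SE, n = 3 pools), 3.39-fold more RNA rostrally. Dusp6, a phosphatase of ERK and an FGF target, had -2.25, -1.24 and -1.47, with a mean of -1.65 ± 0.27 (SE, n = 3 pools). All 6 of its arrays were below 0, and the lowest, at -3.55, was the rostral-Cy5 array of pool 1. Because both genes act in the same pathway, the 250 bases before their RefSeq transcription starts (GRCm38.p6, both on the plus strand) are shown, Spry1 at chr3:37639697-37639946 and Dusp6 at chr10:99262981-99263230. Capitals mark the letters CGGAAG or, on the other strand, CTTCCG, a core of sites that ETS factors can bind.
Spry1: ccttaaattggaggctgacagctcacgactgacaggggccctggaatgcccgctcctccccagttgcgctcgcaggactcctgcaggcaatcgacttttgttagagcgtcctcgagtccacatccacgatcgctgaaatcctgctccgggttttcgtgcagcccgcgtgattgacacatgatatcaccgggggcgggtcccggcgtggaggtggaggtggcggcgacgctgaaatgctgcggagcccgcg
Dusp6: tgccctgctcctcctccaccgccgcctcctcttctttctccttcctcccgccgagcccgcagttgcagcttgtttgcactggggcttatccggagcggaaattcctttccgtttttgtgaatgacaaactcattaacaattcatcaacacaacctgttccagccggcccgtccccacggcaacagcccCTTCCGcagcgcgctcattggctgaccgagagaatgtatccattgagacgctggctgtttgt
The Dusp6 stretch holds 1 match, 62 bases before the start, and the Spry1 stretch 0. Among RefSeq promoter stretches of this length, 13.6% of 32851 hold a match, and 2 of the 8 stretches found for 6 of the 7 tested genes of the FGF feedback list do, those of Dusp6 and Spred1. A match of letters is a description and not evidence of binding.

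Spry2, a second Sprouty inhibitor, and Etv1, an ETS transcription factor induced by FGF, were each measured in 2 pools. Spry2 had -2.10 and -1.04 in pools 2 and 3, a mean of -1.57 ± 0.39 (SE, n = 2 pools), and its arrays in pool 2 stood apart at -0.74 and -3.45. Etv1 had -1.76 and -1.33 in pools 1 and 3, a mean of -1.55 ± 0.27 (SE, n = 2 pools). All 5 measured arrays of each gene were below 0. Spred1, a membrane-bound inhibitor of the same pathway, had -0.50 ± 0.20 at its first probe, below 0 on all 6 arrays, and 0.20 ± 0.34 at its second, where the arrays were split 3 to 3. Etv5, another ETS factor, had -0.36 ± 0.17 and -0.16 ± 0.19 (SE, n = 3 pools) at its 2 probes, and its first probe turned to 0.16 on the caudal-Cy5 arrays. Etv4, a further ETS factor of the list, had 0.19 ± 0.20 (SE, n = 3 pools), with 5 of 6 arrays above 0. In all, 7 of the 9 probes of the list were below 0, beside 45% of all tested probes, and the median of all tested probes was 0.03. On all 6 arrays, 3 of the 7 probes measured there were below 0, beside 1.87%.

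The FGF ligands were not alike. Fgf15, a ligand of cortical progenitors, had -0.91, -1.29 and -0.99 in the 3 pools, was below 0 on all 6 arrays and had a mean of -1.06 ± 0.19 (SE, n = 3 pools). Fgf8 and Fgf17, ligands of the rostral patterning centre, had ratios of 0.04 ± 0.24 (SE, n = 2 pools) and 0.32 ± 0.34 (SE, n = 3 pools), within their errors of 0. Fgf17 stood at -0.46, 0.44 and 0.97 in the pools, with no common sign. Of the receptors, Fgfr2 had 0.33, 0.56 and 1.40, above 0 on all 6 arrays, with a mean of 0.76 ± 0.28 (SE, n = 3 pools). Fgfr1 had -0.12 ± 0.19, and 2 of its 6 arrays were above 0.

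Other genes below 0 on all 6 arrays were Mpped2, Pantr1 and Sall3. Mpped2, a metallophosphoesterase, had -1.52, -1.16 and -1.31, a mean of -1.33 ± 0.18 (SE, n = 3 pools). Pantr1, a noncoding RNA transcribed beside a POU factor gene, had -0.77, -0.77 and -0.92. Its 6 arrays lay between -0.99 and -0.72, a narrow range for these data, and its mean was -0.82 ± 0.17. Sall3, a zinc finger transcription factor, had -1.28, -1.42 and -0.77, a mean of -1.16 ± 0.22 (SE, n = 3 pools).

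Nr2f1, a nuclear receptor known for its high caudal and low rostral expression in the cortex, was among the steadiest caudal ratios. Its 6 arrays gave 1.48 and 1.19 for pool 1, 1.12 and 1.02 for pool 2, and 1.13 and 1.17 for pool 3, the caudal-Cy5 array first. All lay above 1, with a mean of 1.19 ± 0.18 (SE, n = 3 pools), 2.27-fold more RNA caudally. A second Nr2f1 probe disagreed, with -0.30, 0.46 and 0.78 in the pools and a mean of 0.31 ± 0.28. Emx2, a homeobox factor known for a caudal gradient, had -0.36, -0.06 and 0.21, a mean of -0.07 ± 0.20. Pax6, known for the opposite gradient, had -0.17 ± 0.18 and -0.05 ± 0.25 (n = 3 and 2 pools) at its 2 probes. Neither gene's direction was settled by these arrays, as both turned with the dye: Emx2 had 0.34 on the caudal-Cy5 arrays and -0.48 on their dye swaps.

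**Figure D2:**
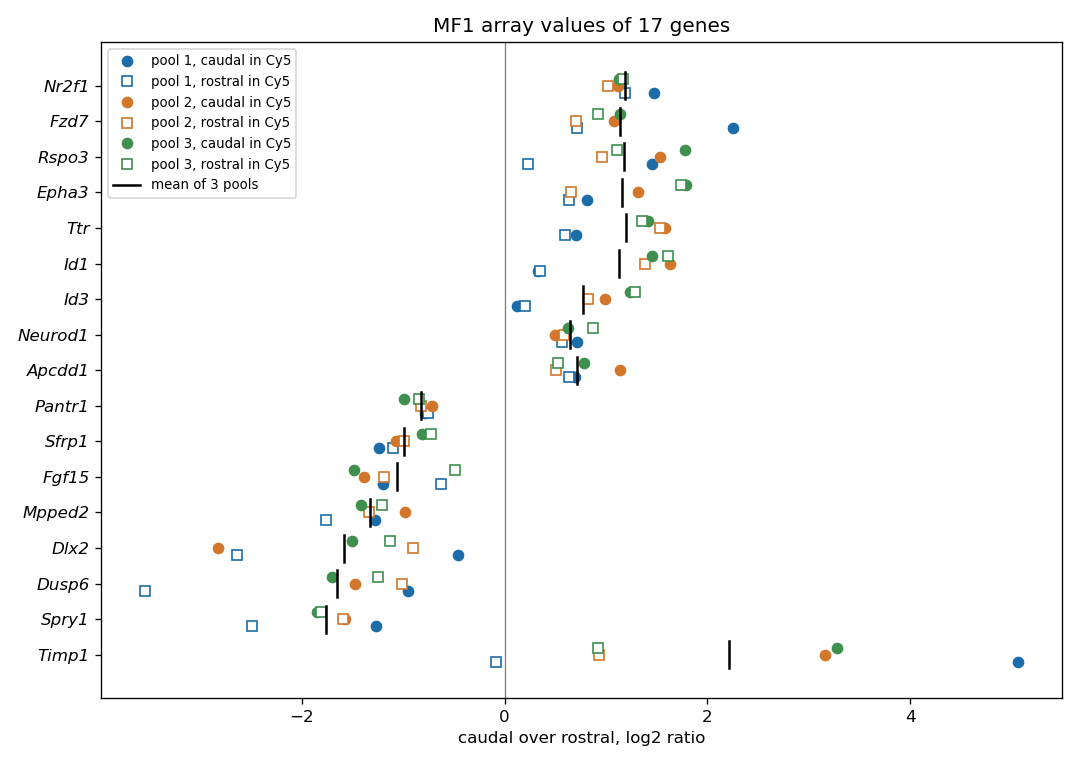
Log2 ratios (caudal over rostral) on the 6 MF1 arrays for 17 genes. Filled circles are caudal-Cy5 arrays, open squares the dye exchange, colours the pools and black bars the mean of 3 pools. Nr2f1 and Pantr1 arrays lie close together, Dlx2 and Dusp6 arrays are spread widely on the rostral side, and the Timp1 circles stand apart from its squares.

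Genes of WNT signalling were found on both sides. Rspo3, a secreted enhancer of WNT signalling made in the cortical hem, had 0.84, 1.25 and 1.45, above 0 on all 6 arrays, with a mean of 1.18 ± 0.21 (SE, n = 3 pools). Fzd7, a WNT receptor, had 1.49, 0.89 and 1.03, also above 0 on all 6, with a mean of 1.14 ± 0.21. Both were larger on the caudal-Cy5 arrays: Rspo3 had 1.59 there and 0.77 on the other arrays, and Fzd7 1.49 and 0.78. Apcdd1, a membrane inhibitor of WNT signalling, had 0.66, 0.83 and 0.65, a mean of 0.71 ± 0.17 (SE, n = 3 pools), and its 6 arrays lay between 0.51 and 1.14. Wnt3a, a ligand of the hem, had 0.51 and 0.89 in pools 1 and 3 and was above 0 on 4 of 5 arrays. On the other side stood Sfrp1, a secreted WNT antagonist. Its 2 probes had -0.99 ± 0.19 and -0.73 ± 0.21 (SE, n = 3 pools), and all 12 array values were below 0. Of the WNT ligands and R-spondins, 6 of 7 probes were above 0, beside 54.9% of all tested probes. Their median was 0.26, with 0.51, 0.19 and 0.24 without pools 1, 2 and 3. The other probe, of the ligand Wnt5b, had -0.72 and -1.30 in pools 1 and 3. Its mean was -1.01 ± 0.29 (SE, n = 2 pools), and all 5 measured arrays were below 0. Of the secreted antagonists, 4 of 6 were below 0, beside 45%, with a median of -0.30.

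The BMP target genes measured on 6 arrays shared a sign. Id1, a helix-loop-helix inhibitor of differentiation factors induced by BMP, had 0.34, 1.51 and 1.53 in the pools, a mean of 1.13 ± 0.33 (SE, n = 3 pools). The 2 arrays of each pool lay close together, pool 1 at 0.33 and 0.35, pool 2 at 1.63 and 1.39, and pool 3 at 1.45 and 1.61, so the spread was between pools. Id3 was likewise nearest to 0 in pool 1, with 0.16, 0.91 and 1.26 and a mean of 0.78 ± 0.28. Id2 had 0.34 ± 0.18 and Msx2, a homeobox target of BMP, 0.19 ± 0.17, the latter barely larger than its error. All 4 tested probes of the list were above 0 on all 6 arrays, beside 1.02%, with a median of 0.56. The arrays were not centred, and 2 of these probes fell below the median of all probes on some arrays. That median was 0.189 and 0.23 on the caudal-Cy5 arrays of pools 2 and 3. Msx2 had 0.175 and 0.027 there, and Id2 had 0.156 in pool 3. The ligand Bmp5 had -0.29, 2.03 and 1.65, with no common sign.

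Ttr, the thyroid hormone carrier that marks the choroid plexus, had 0.65, 1.56 and 1.39, with a mean of 1.20 ± 0.26 (SE, n = 3 pools). Its 2 arrays per pool differed by little: 0.70 and 0.60, 1.58 and 1.54, and 1.41 and 1.36. Over the whole list of markers of the hem and choroid plexus, 11 of 14 probes were above 0, beside 54.9% of all tested probes. The range was -0.98 to 1.20 and the median 0.19, with 0.42, 0.14 and 0.27 without pools 1, 2 and 3. On 6 arrays, 4 of the 11 probes measured there were above 0 throughout, beside 1.02%: Ttr, Rspo3, Id3 and Msx2. For Msx2 this depended on arrays that were not centred, as given above. Lmx1a, a transcription factor of the hem, had 0.45, 0.18 and 2.34. Most of these markers lay on the caudal side, as did most of the WNT ligands and BMP targets, and 4 of the BMP and WNT genes above are also on this list. How far tissue of the hem in the caudal dissections contributed to those ratios was not tested.

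Eph receptors, which bind ephrins in contact-dependent guidance of cells and axons, had a mean above 0 at 9 of 9 probes, beside 54.9% of all tested probes. Their single pools did not all share that sign. Their median was 0.63, with 1.20, 0.54 and 0.44 without pools 1, 2 and 3. In C57 it was 0.27, where all probes had 0.13. Epha3 had 0.72, 0.98 and 1.76, a mean of 1.16 ± 0.28 (SE, n = 3 pools), and was the one member above 0 on all 6 arrays. The others varied more. Epha4 had 1.15 ± 0.64 and 0.12 ± 0.17 at its 2 probes, Ephb4 0.83 ± 0.32 and Epha7 0.63 ± 0.52. Epha7 turned to -1.18 on the rostral-Cy5 arrays. In pool 1, Epha7 had -0.64, Epha8 -0.41, the first Epha4 probe -0.27, Epha6 -0.23 and Ephb3 -0.08. Epha3, Ephb4 and the second Epha4 probe were above 0 in that pool, and Epha5 had no value for it. Ephb3 was also below 0 in pool 2, at -0.39, and had 2.18 in pool 3. The ligand Efnb2 had the opposite sign, with -0.40, -0.82 and -0.67, below 0 on all 6 arrays, and a mean of -0.63 ± 0.19 (SE, n = 3 pools). Dcc, the netrin receptor, likewise lay below 0 on all 6 arrays, at -0.51, -0.75 and -0.48, with a mean of -0.58 ± 0.18.

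**Figure D3:**
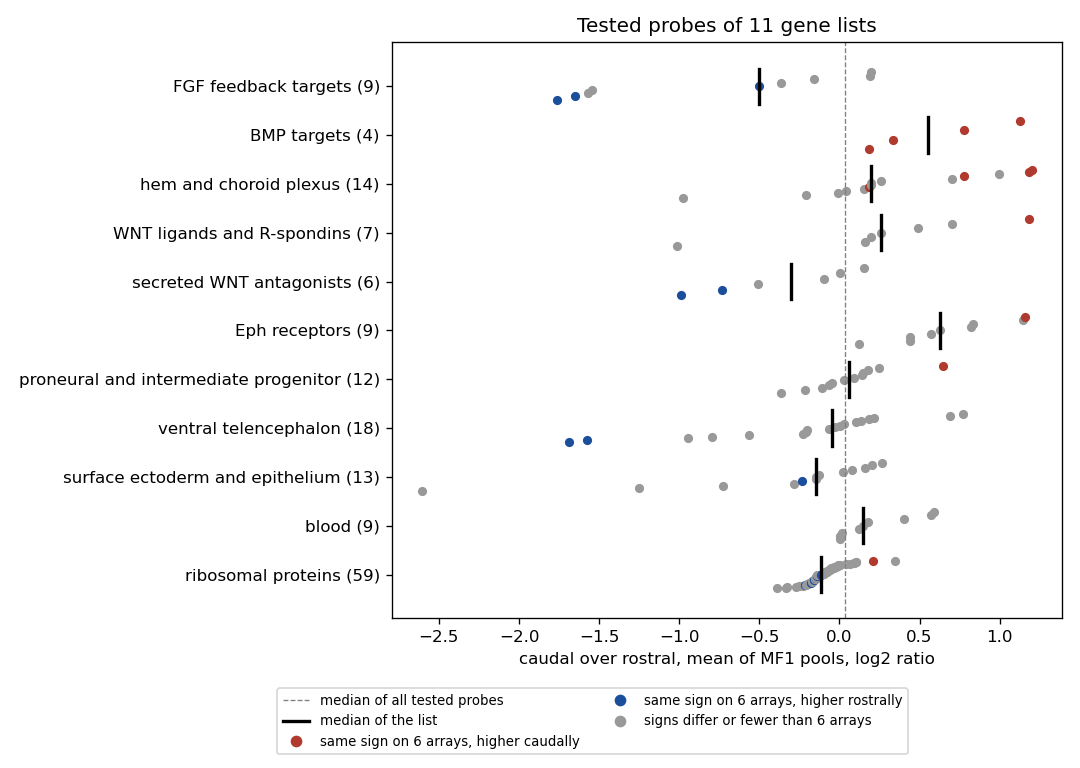
Every tested probe of 11 gene lists, with the number of probes in brackets, at its mean log2 ratio of caudal over rostral over the MF1 pools. Black bars are list medians and the dashed line the median of all tested probes, 0.03. FGF feedback genes extend to -1.76, Eph receptors all lie above 0, and ribosomal protein genes cluster around -0.12.

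Among genes of neurogenesis and the cell cycle, Neurod1, a proneural transcription factor, had 0.64, 0.54 and 0.75. Its 6 arrays lay between 0.50 and 0.88 and the mean was 0.64 ± 0.17 (SE, n = 3 pools). No other probe of the list of proneural and intermediate progenitor genes had 1 sign on all 6 arrays. Among all probes measured on 6 arrays, 2.89% had 1 sign throughout. The median of the list's 12 probes was 0.06, with 0.14, 0.08 and 0.06 without pools 1, 2 and 3. Of the D-type cyclins, which drive entry into the cell cycle, Ccnd2 had 0.66 ± 0.23 and 0.97 ± 0.41 (SE, n = 3 pools) at its 2 probes, and the first was above 0 on all 6 arrays. Ccnd1 had -1.55, -0.29 and -0.55, a mean of -0.80 ± 0.32 and 5 of 6 arrays below 0. Cdkn1c, an inhibitor of cyclin-dependent kinases, had -0.51, -1.71 and -0.80, also with 5 of 6 arrays below 0. Targets of Notch were split 3 above to 3 below 0, and 0 of the 4 measured on 6 arrays had 1 sign throughout, beside the same 2.89%. The lowest Notch target was Nrarp at -0.89 ± 0.35 (n = 2 pools), followed by Hes1 at -0.45 ± 0.25 (n = 3 pools). Slc1a3, a glutamate transporter of radial progenitors, had -0.52 ± 0.20 at one probe and 0.51 ± 0.66 at the other.

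Some other genes also had 1 sign on all 6 arrays at 1 or more of their probes, in some cases with pool values far apart. Rbm20, a splicing regulator, had 1.29, 1.13 and 1.17, a mean of 1.20 ± 0.17 (SE, n = 3 pools). Fam172a, the gene that neighbours Nr2f1 in the genome, had 1.04, 1.03 and 1.30 at one probe, a mean of 1.12 ± 0.18, but -0.96 and 2.47 at another that was measured in 2 pools. Slc37a2, a sugar phosphate transporter, had 0.64, 1.88 and 2.32, and its mean of 1.61 ± 0.40 was the largest of the caudal genes with 6 arrays above 0. Kitl, the ligand of the receptor Kit, had -1.50 ± 0.26 (n = 3 pools) and -1.30 ± 0.26 (n = 2 pools) at its 2 probes, with all 11 measured arrays below 0; the first probe had -0.94 on the caudal-Cy5 arrays and -2.05 on their dye swaps. Mest, an imprinted gene, had -0.45, -1.18 and -1.56, a mean of -1.06 ± 0.29, and Gas1, a membrane protein that binds Sonic hedgehog, -0.22, -0.63 and -1.22, a mean of -0.69 ± 0.27. Both were below 0 on all 6 arrays, which were not centred. On the rostral-Cy5 array of pool 1 they had -0.28 and -0.185. The median of all probes on that array lay farther to the rostral side, by 0.449 from 0. The uncharacterised transcript A930016O22Rik had a mean of -2.03 ± 0.59 (SE, n = 3 pools), with pool 3 at -3.59 and arrays from -3.91 to -0.78.

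Markers of neighbouring tissue also had large ratios. Dlx1 and Dlx2, homeobox genes of the ventral telencephalon, had -0.84, -2.18 and -2.05, and -1.55, -1.86 and -1.32. Their means were -1.69 ± 0.35 and -1.58 ± 0.20 (SE, n = 3 pools) and all 6 arrays of each were below 0, although the Dlx2 arrays ran from -2.83 to -0.46. Dlx5, a related gene, had -0.56 ± 0.19 with 5 of 6 arrays below 0. The whole list of ventral telencephalon markers had 10 of 18 probes below 0, beside 45% of all tested probes, a range of -1.69 to 0.77 and a median of -0.05. That median had no settled sign, with 0.19, -0.11 and -0.40 without pools 1, 2 and 3. Krt18, a keratin of simple epithelia, had -2.41 and -2.80 in pools 2 and 3, a mean of -2.61 ± 0.26 (SE, n = 2 pools), but its arrays in pool 3 were -5.23 and -0.37. Trp63, needed for stratified epithelia to form, had -1.24, -1.02 and -1.48, a mean of -1.25 ± 0.19, but -0.30 on the caudal-Cy5 arrays and -2.20 on their dye swaps. The surface ectoderm list had 8 of 13 probes below 0, beside 45% of all tested probes, and a median of -0.15. Without pools 1, 2 and 3 the median was -0.31, -0.13 and -0.27. How far ventral or epithelial tissue in the rostral dissections contributed to the ratios of the rostral genes was not tested.

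Of the remaining lists, ribosomal proteins stood out by number and not by size. Of 59 probes, 50 were below 0, beside 45% of all tested probes; the range was -0.39 to 0.35 and the median -0.12, or -0.13 after centring. On 6 arrays, 8 of 56 were below 0 throughout, beside 1.87%, and 1 was above. In C57 the same list had a median of 0.23, where all probes had 0.13. Blood markers were above 0 at 9 of 9 probes, beside 54.9% of all tested probes, but Hba-a1 and 1 Hba-x probe, both globins, stood at 0.0017 and 0.0022 and turned to -0.0057 and -0.0052 after centring. The highest value of the list was 0.59 and the median 0.14, with 0.29, 0.08 and 0.07 without pools 1, 2 and 3. The embryonic globin Hbb-bh1 had 0.18 ± 0.19. Endothelial markers were split 8 to 8. Sox18, an endothelial transcription factor, had 2.34 and 2.25, a mean of 2.30 ± 0.24 (SE, n = 2 pools), but its arrays in pool 3 were 4.45 and 0.05. Esm1, another endothelial gene, had -0.72 ± 0.18 with all 6 arrays below 0.

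Some of the largest ratios were tied to the dye or to few arrays. Timp1, an inhibitor of matrix metalloproteinases, had pool values of 2.49, 2.04 and 2.10, a mean of 2.21 ± 0.19 (SE, n = 3 pools) that varied little between pools. Its arrays did vary, with 5.07, 3.16 and 3.28 on the caudal-Cy5 arrays of pools 1 to 3 and -0.09, 0.93 and 0.92 on the rostral-Cy5 arrays. The dye orientations thus differed the same way in every pool, and averaging them left pool values close to each other. Sema3b, a secreted semaphorin, had -2.64 and -3.27 in pools 1 and 2, from arrays of -4.64, -0.64, -4.34 and -2.20, while its 1 measured array of pool 3 had 1.77. Akp3, an alkaline phosphatase, had -2.98 and -2.55 in pools 2 and 3, and 0.37 on its 1 array of pool 1. The uncharacterised transcript 2310005A03Rik had -2.82 and -2.27 in pools 1 and 2, from arrays of -2.12, -3.52, -0.67 and -3.88, with no ratio in pool 3.

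The C57 pools were set beside MF1 for the probes with 1 sign on 6 MF1 arrays. Of the 8924 probes that both C57 pools also measured, both C57 pools were above 0 for 38.7% and below 0 for 2.58%; the C57 arrays were not centred either. Of the 94 probes above 0 on all 6 MF1 arrays, 71 (75.5%) were above 0 in both C57 pools, and of the 169 below 0, 34 (20.1%) were below 0 in both. On all 10 arrays, 36 probes (0.403%) were above 0 and 19 (0.213%) below 0. Nr2f1, Fzd7, Rspo3, Epha3, Ttr, Id1, Id3, Neurod1 and the uncharacterised transcript C630043F03Rik were among those above. Spry1, Mpped2, both Sfrp1 probes, Pantr1, Sall3, Dcc, Efnb2, Mest, Gas1 and the first Slc1a3 and Spred1 probes were among those below.

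**Figure D4:**
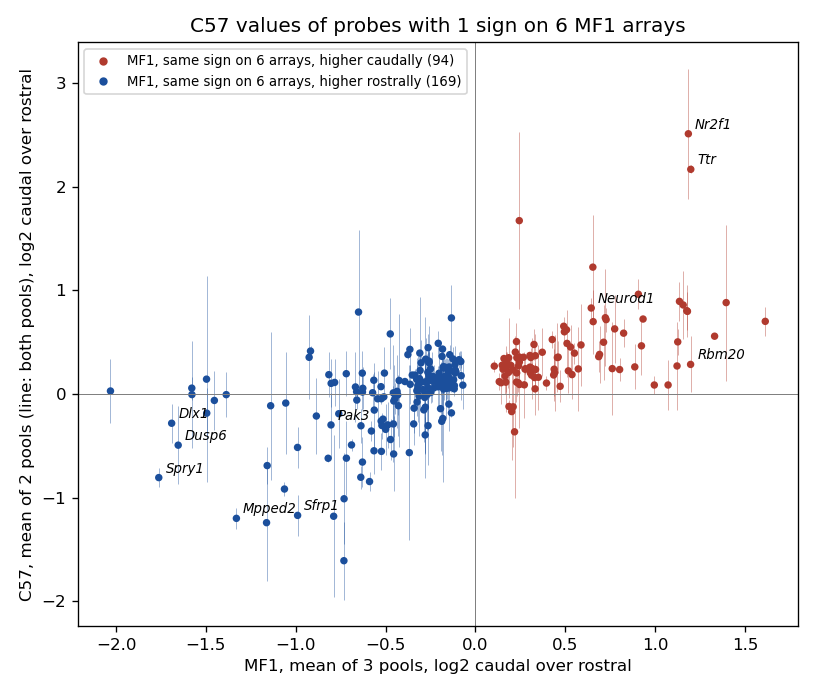
The 263 probes with the same sign on all 6 MF1 arrays that were measured in both C57 pools, 94 above 0 (red) and 169 below 0 (blue). The x axis is the MF1 mean of 3 pools and the y axis the C57 mean of 2 pools, both log2 ratios of caudal over rostral; lines join the 2 C57 pools. Spry1, Mpped2 and Sfrp1 lie low in both strains, and Dlx1 lies low in MF1 and near 0 in C57.

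The difference between the strains was tested on 11855 probes, MF1 minus C57. In limma with Benjamini-Hochberg adjustment, 0% passed 0.05, the smallest adjusted p being 0.999. Without adjustment 223 (1.88%) had a p under 0.05, 65 with a higher ratio in MF1 (0.548%) and 158 with a lower one (1.33%). The median difference over all tested probes was itself below 0, at -0.10, or -0.009 with each array centred on its median. Dlx2 had 0.06 in C57, a difference of -1.63 ± 0.31 (SE, n = 3 and 2 pools), and Dlx1 -0.28 in C57, a difference of -1.41 ± 0.49. Spry1 differed by -0.95 ± 0.28 and Dusp6 by -1.16 ± 0.44, as their C57 ratios of -0.81 and -0.49 were nearer to 0. Caudally, Nr2f1 differed by -1.33 ± 0.43 at its first probe, with 2.51 in C57, and Ttr by -0.97 ± 0.37, with 2.17 in C57. Rbm20 had 0.29 in C57, a difference of 0.91 ± 0.30, and Sox18 -0.11 in C57, a difference of 2.40 ± 0.46 (SE, n = 2 pools of each strain). None of these differences passed the adjusted test. Strain cannot be told apart from litter here, as each set of pools came from a single litter per the design text. The arrays of the strains also differed, with fewer probes measured on the MF1 arrays.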

How the data were processed

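The authors deposited 1 table with a log2 ratio of the 2 channels per probe and array; the unit was read from the values, which take both signs and reach a ceiling of 16.61. The sources used here do not name a scanner, background correction or normalization. Values at the ceiling (361 on the MF1 arrays) and null values were set to missing, since they may lack a denominator, which was not tested, and 232 Gapdh control spots were left out. All arrays were given the same direction, caudal over rostral, and a pool counted where both of its arrays gave a ratio. The 3 pool values of a probe entered limma 3.58.1 (lmFit and eBayes, R 4.3.3, 1.91 prior degrees of freedom); probes with 2 pools lack 1 sample. The strain difference used 5 pools with a coefficient per strain. Tests were two-sided with Benjamini-Hochberg adjustment; errors are limma's moderated SE. P-values measure the spread between these pools. The number of arrays limits the precision.

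Symbols came from the platform annotation: 16632 probes carried 1 symbol, 139 carried several and were not named, and 4995 had none. RefSeq gene IDs matched 15952 of the symbols. Promoter stretches are from RefSeq, GRCm38.p6. A rule chose the genes to name: those with the smallest p caudally and rostrally, those with the largest ratios of 1 sign on 6 arrays, each list's member with the smallest p, every tested probe of short lists, a set of gradient genes, and those with the smallest p for MF1 against C57. Further genes, among them those whose array nearest to 0 lay farthest from it, were picked with their values in view. The members and the 43 gene lists were chosen with earlier results of these data known. Alternatives covered centring, scaling, filters, the ceiling, dye order, probe averaging, the variance model, weights, pools left out and the pool as a block. The fits were tested on simulated data. Plots used matplotlib 3.10.9 (Python 3.11.15).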

Additional observations from a re-analysis of the deposited data

Results flagged for a closer look

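For Sema3b, both MF1 pools measured in both dye orientations were below 0 and both C57 pools above 0. The means were -2.96 and 0.23, a difference of -3.18. The 1 measured array of MF1 pool 3 did not enter the mean and had the other sign, at 1.77. For Nrarp, a target of Notch signalling, the 2 measured MF1 pools were below 0 and both C57 pools above 0, with means of -0.89 and 0.24 and a difference of -1.14. The difference was tested across all probes in limma and passed for neither gene (adjusted p = 0.999 for both).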

How the results depend on the processing

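No probe passed an adjusted p of 0.05 under any alternative fitted for MF1 or for the strain difference, nor at 0.1 for MF1. The number of tested probes differed between alternatives. The 377 of 12875 MF1 probes at an unadjusted limma p under 0.05 became 230 of 9370 with all pools required and 823 of 19227 with a pool of 1 measured array kept. They became 859 of 12875 with pool weights, 1217 of 15526 on caudal-Cy5 arrays alone and 1389 of 16328 on rostral-Cy5 arrays alone. With a pool left out they ran from 173 of 11337 (without pool 2) to 1157 of 10114 (without pool 1). The 223 of 11855 probes of the strain difference became 147 of 8924, 554 of 18840, 358 of 11855, 460 of 14508 and 834 of 15313 in the same order. They became 446 of 11855 with arrays centred and scaled. With a pool left out they ran from 140 of 10697 (without MF1 pool 2) to 488 of 9408 (without MF1 pool 1). A lone C57 pool was assumed to vary like the MF1 pools. Adjusted counts with a pool left out stayed at 0. With 6 arrays fitted singly, a dye term and the pool as replicate block (correlation 0.47), 277 MF1 probes had an unadjusted p under 0.05, and 362 with centring as well. The pool numbers 1 and 2, which the strains share, had deviations that correlated at 0.15 and -0.02 between strains. With 2 C57 pools, whose deviations mirror each other, these values cannot settle whether the numbers pair the samples. The main fit did not treat them as pairs. As a replicate block the pool numbers gave 293 probes of 8924 and 0 that passed. Centring, chosen for this count after seeing the data, raised the probes above 0 on 6 arrays from 96 to 289.

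Of 82 named probes, 68 kept their sign in every alternative they could be fitted in, 13 to 17 per probe. Many of the named probes were chosen because their ratios had the same sign on every MF1 array. For those, leaving out a pool or a dye orientation, or weighting the pools, cannot turn the sign. The count of 68 is therefore partly set by the choice of probes and does not measure how stable the signs are. Reversed values on caudal-Cy5 arrays were 0.082 (Bcl11a), 0.34 (Emx2), 0.16 (Etv5), 0.32 (Fgfr1) and 0.13 (Pax6), and on rostral-Cy5 arrays -1.18 (Epha7), -0.99 (Fam172a), -0.17 (Fgf8), -0.015 (Hba-a1), 0.0995 (Pax6, second probe), -0.17 (Spred1) and -0.026 (Tenm2). Averaging the probes of a gene gave 0.12 (Bcl11a), -0.0054 (Slc1a3) and -0.15 (Spred1), and pool weights 0.055 (Emx2) and 0.043 (Pax6). Single arrays with the block gave Fgf8 -0.039, or -0.0095 with centring, where Hba-a1 had -0.0057, as it had when centred alone. With a pool left out, Emx2 ranged from -0.21 to 0.075 (positive without pool 1), Slc1a3 from -0.036 (without pool 2) to 1.40, Spred1 from -0.20 (without pool 2) to 0.50, Fgf17 from -0.013 (without pool 3) to 0.71 and Hba-a1 from -0.0022 (without pool 3) to 0.0057; for Slc1a3 and Spred1 this is the second probe. Of 172 list medians compared, 8 moved by more than the SD between pools, that of WNT ligands and R-spondins among them (0.51 without pool 1). Leaving out 1 of 3 pools shifts a mean by only part of that SD, so few such comparisons could count as moved. The ventral telencephalon median, for example, went from -0.05 to 0.19 without pool 1 and counted as unmoved. The count of 8 therefore does not measure how stable the medians are. The cause of these changes of sign or median was not tested. Signal over background was not analysed here, so low values could not be told from noise.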

Other observations

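Bcl11a, a zinc finger transcription factor of the cortex, had 0.40 ± 0.18 at one probe, above 0 on all 6 arrays, and -0.15 ± 0.19 at another (SE, n = 3 pools). Tenm2, a teneurin of cell contacts, had 1.40 ± 0.38 at the first of its 3 probes, above 0 on all 6 arrays, and 0.24 ± 0.23 and 0.07 ± 0.17 at the others. Igsf3, an immunoglobulin superfamily member, had 0.21, 1.52 and 1.04 in the pools and lay above 0 on all 6 arrays. Gap43, a protein of growing axons, and Pak3, a kinase of the cytoskeleton, lay below 0 on all 6 arrays, at -0.66 ± 0.23 and -0.80 ± 0.18, while C57 had values of -0.15 and 0.03, and -0.61 and 0.01, in its 2 pools. On the rostral-Cy5 array of MF1 pool 1, Gap43 had -0.385, nearer to 0 than the median of all probes on that array.

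A set of 5 probes carried nearly the same ratio on every MF1 array. Hba-a1 and Hba-x, both globins, the histone H3f3a, the ribosomal protein Rpl41 and 1 probe without a symbol lay within 0.02 of Hba-a1 on all 6 arrays, at values between -0.02 and 0.03. None of the other 9365 probes measured on 6 arrays had such a neighbour at the same tolerance. The values of these probes cannot be read as separate measurements of each gene without the channel intensities, which were not analysed here.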
